A study of Homo sapiens with 8 samples.

Results

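Genes of the aldo-keto reductase superfamily were followed through docetaxel resistance in the prostate cancer lines DU145 and PC3: AKR1C1, AKR1C2 and AKR1C3 of chromosome 10, and AKR1B1 and AKR1B10 of chromosome 7. The members are the rows of the count files that carry one of these symbols, which gave 5 genes on 6 of 60554 gene rows. The extra row is a further AKR1C3 identifier, ENSG00000282883.1, which has 0 counts in all 8 libraries and was left out. All 5 genes passed the filter on low counts, among 20238 genes tested. They were chosen by their measured counts and CPM in resistant against sensitive cells, so those differences are given as a description with no test.

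The 8 bulk RNA-seq libraries fall into 4 groups of 2. DU145 and PC3 are established androgen-independent lines, from a brain and a bone metastasis, and both were grown in RPMI medium with serum. Docetaxel is a taxane that stabilises microtubules. DU145 resistant and PC3 resistant cells were kept with docetaxel at 10 nM. DU145 sensitive and PC3 sensitive cells were kept with DMSO at 0.1%, and no DMSO level is given for the resistant cells. No label states that the replicates of a group were separate cultures, so the spread between them may be technical. The resistant lines came from earlier work, and no source used here says how they were derived or whether each is a clone. The study took its single cells off docetaxel for a time first, and whether the bulk cultures were treated likewise is not stated, so resistance and exposure to the drug cannot be told apart. In bulk samples, fewer cells that use a gene and less RNA per cell cannot be told apart either.

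Aldo-keto reductases are NADPH-dependent enzymes that reduce aldehydes and ketones to alcohols. The AKR1C enzymes are hydroxysteroid dehydrogenases. AKR1C1 converts progesterone to its 20-alpha-hydroxy form, AKR1C2 inactivates dihydrotestosterone, and AKR1C3 makes testosterone from androstenedione and also reduces prostaglandins D2 and H2. AKR1B1 is aldose reductase, the first enzyme of the polyol pathway from glucose to sorbitol, and AKR1B10 reduces retinal and other aldehydes. Several of them are known targets of the transcription factor NRF2, and these enzymes also reduce the carbonyl group of anthracyclines, a drug class other than the taxanes.

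In GRCh38, the build of the files, AKR1C1 (ENSG00000187134.12) lies at chr10:4963253-4983283 on the plus strand and AKR1C2 (ENSG00000151632.16) at chr10:4987775-5018031 on the minus strand. AKR1C3 (ENSG00000196139.12) lies at chr10:5035354-5107686 on the plus strand. AKR1B1 (ENSG00000085662.13) lies at chr7:134442356-134459284 on the minus strand and AKR1B10 (ENSG00000198074.9) at chr7:134527567-134541412 on the plus strand. All are protein-coding. RefSeq promoter windows (GRCh38.p14, the 250 bases before a start site) were found for 4 of the 5 genes, with 1 window each for AKR1C1 and AKR1C2 and 2 each for AKR1C3 and AKR1B1. The start sites are those of RefSeq, while the gene spans above come from GENCODE. Every window overlaps or lies within the span of its gene, so it may hold transcribed bases.

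The AKR1C windows are shown first because these 3 genes had the largest differences of the 5 in DU145. A 12-base run is present in every one of the 4 AKR1C windows, starting 77, 81, 73 and 86 bases before the start site, and is in capitals here within 30 bases read along the strand of the gene. The stretches are chr10:4963329-4963358 (plus), chr10:5003918-5003947 (minus), chr10:5048699-5048728 (plus) and chr10:5094319-5094348 (plus).
AKR1C1: tcacatgccATTGGTTAACCAgcagacagt
AKR1C2: tcacatgccATTGGTTAACCAgcagacagt
AKR1C3, first start site: ttacatgctATTGGTTAACCAttaggcagt
AKR1C3, second start site: ctacatgccATTGGTTAACCAtcagtcagt
Of 35116 RefSeq promoter windows of the same length, 5 hold this run on either strand, or 0.0142%, and 1 of them belongs to none of the members. The run was picked as the longest one shared by the 4 AKR1C windows, so its presence in them was fixed beforehand. The share over all windows is therefore a description and no test. The first 5 letters of the run are the reverse complement of CCAAT, which 32.0% of all windows hold. The first start site of AKR1C3 also has TATAAA, on the other strand and 26 bases upstream, a word found in 10.7% of all windows.

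AKR1C1 and AKR1C2, the neighbours transcribed from opposite strands, are the most similar in these windows. The distal part of both is shown, cut before the first annotated exon in the window. The capitals mark 84 identical bases, at chr10:4963165-4963252 (plus, 88 bases shown) and chr10:5004024-5004107 (minus).
AKR1C1 distal: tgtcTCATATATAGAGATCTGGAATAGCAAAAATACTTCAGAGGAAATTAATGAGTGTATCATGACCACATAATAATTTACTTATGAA
AKR1C2 distal: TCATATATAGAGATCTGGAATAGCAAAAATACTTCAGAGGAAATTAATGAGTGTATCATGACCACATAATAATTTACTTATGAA
Over the whole windows, AKR1C1 and AKR1C2 matched at 245 of 254 aligned positions (96.5%), and every other pair of AKR1C windows matched at 63.3% to 71.4%. The core of the antioxidant response element, TGACNNNGC, and the AP-1 site, TGANTCA, were searched on both strands and matched none of the 6 windows of AKR1C1, AKR1C2, AKR1C3 and AKR1B1. They match 10.9% and 6.57% of all windows. A window without a match says only that these letters are not within it.

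Total counts ran from 31685148 to 43045127 per library. Replicates of each group correlated at 0.987 to 0.990 across genes on the log2 scale and differed by more than counting noise, so all 8 were kept. The pump gene ABCB1 stood at 1.61 to 3.38 CPM (counts per 1e6 of the library total) in the sensitive libraries and at 86.6 or more in the resistant ones, and CTNNA1, known to be deleted in PC3, at 2.14 to 3.25 CPM in PC3 against 483 or more in DU145. The epithelial markers KRT8, KRT18, KRT19 and EPCAM were present in every library, and KLK3 and KLK2, markers of androgen-driven prostate cells, had 0 counts throughout. The summed level of the 4 epithelial markers was 2537 to 4155 CPM in DU145 sensitive and 249 to 396 CPM in DU145 resistant libraries, so it moved with the AKR1C genes, and 3 of these 4 markers passed the test as lower. In DU145 the summed markers of 4 genes each reached at most 1.42 CPM for hepatocytes, 0.374 for blood, 1.39 for endothelium and 6.15 for fibroblasts, with no list at 0 throughout. In PC3 the endothelial sum was 6.75 to 7.04 CPM in sensitive and 20.7 to 50.3 CPM in resistant libraries, mostly PECAM1 and KDR, and the hepatocyte sum at most 0.442 and then 38.6 to 40.5 CPM, nearly all SERPINA1, with the defining ALB at most 0.60 CPM. The PC3 fibroblast sum was 23.4 to 34.7 CPM in sensitive and 26.1 to 32.5 CPM in resistant libraries, with 1 of its 4 genes passing as lower. The PC3 blood sum was at most 1.05 CPM. The part of these markers in the results was not tested.

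AKR1C1 and AKR1C2 were among the well expressed genes of sensitive DU145 cells and had single-digit or low double-digit counts in resistant ones. AKR1C3 was lower by a smaller factor, AKR1B1 by 2.15 times, and AKR1B10 stood at 2.09 to 2.98 CPM in both. In PC3, every one of the 5 genes was below 3 CPM in all 4 libraries.

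**Figure D1:**
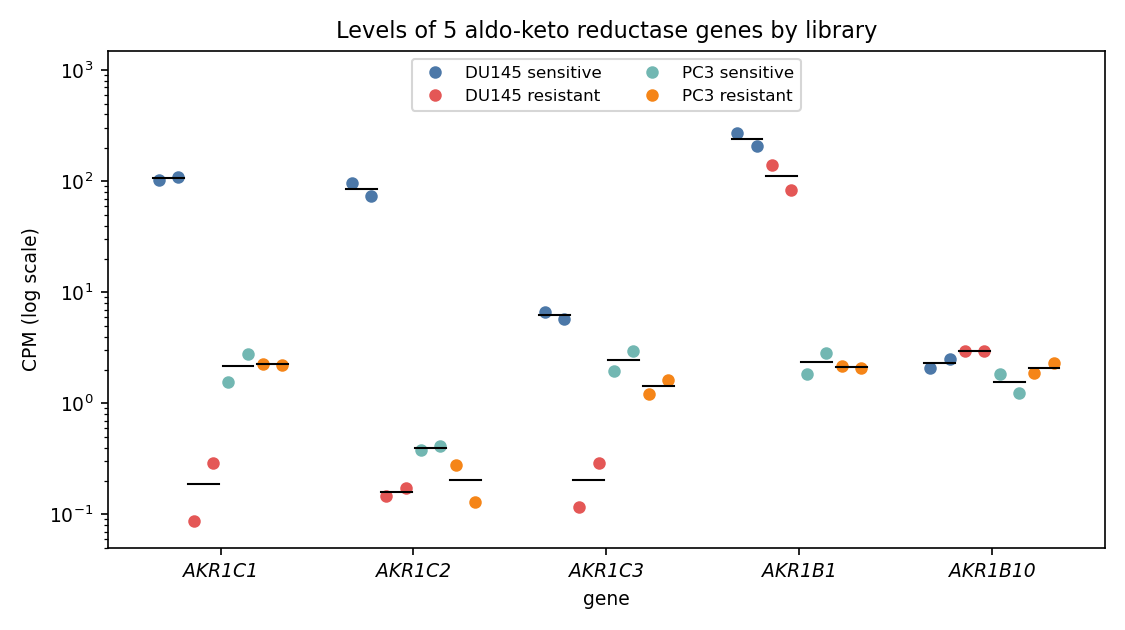
Points are the CPM of each gene (x axis) in each of the 8 libraries on a log scale (y axis), coloured by group, and horizontal lines are group means (n = 2). AKR1C1 and AKR1C2 sit at 74.5 to 109 CPM in DU145 sensitive cells and below 0.3 CPM in DU145 resistant cells, while AKR1B10 stays between 1.23 and 2.98 CPM in all 8 libraries.

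Counts of AKR1C1, the 20-alpha-hydroxysteroid dehydrogenase, were 3702 and 3796 in sensitive DU145 cells, and resistant DU145 cells had 3 and 10. As CPM these are 103 and 109 against 0.0877 and 0.288. The groups lie far apart, and the lower resistant library is at the 3-count floor. Means were 106 ± 4.32 CPM (SD, n = 2) in sensitive and 0.188 ± 0.142 (SD, n = 2) in resistant cells. The pooled counts, 7498 against 13, give a ratio of 562 with an exact 95% counting interval of 329 to 1057, which covers counting error only. The fitted log2 fold change was -9.11 ± 0.37 (SE). It rests on few counts, since without DU145 resistant replicate 2 it was -10.10.

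In PC3, sensitive cells gave 54 and 89 counts of AKR1C1 against 97 and 86 for resistant cells, or 1.56 and 2.81 against 2.25 and 2.23 CPM. Both resistant values lie between the sensitive ones. The log2 fold change was -0.05 ± 0.28 (SE), and its sign turned when PC3 sensitive replicate 2 was left out, to 0.40. Across the 4 groups AKR1C1 was highest in DU145 sensitive and lowest in DU145 resistant cells, with the overlapping PC3 groups between. Sensitive DU145 cells held 48.5 times the mean CPM of sensitive PC3 cells, and resistant DU145 cells 0.0838 times that of resistant PC3 cells.

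For AKR1C2, which reduces dihydrotestosterone to a weak androgen, sensitive DU145 cells gave 3464 and 2590 counts, and resistant DU145 cells gave 5 and 6. The CPM were 96.4 and 74.5 against 0.146 and 0.173. Its separation was of the same order as that of AKR1C1. Means were 85.4 ± 15.5 CPM and 0.159 ± 0.0189 CPM (SD, n = 2 each), and the pooled ratio of 6054 to 11 counts was 537 (exact 95% counting interval 300 to 1075). The log2 fold change was -9.03 ± 0.33 (SE).

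AKR1C2 was the lowest of the 5 genes in PC3, with 13 and 13 counts for sensitive cells against 12 and 5 for resistant cells, or 0.376 and 0.410 against 0.279 and 0.130 CPM. Both resistant libraries lie below both sensitive ones. The pooled ratio was 1.88 with a counting interval of 0.985 to 3.70, so at this depth the counts alone do not separate the groups. The log2 fold change was -1.01 ± 0.42 (SE), moving to -1.66, past the threshold used for all genes, without PC3 resistant replicate 1. The order of the groups was DU145 sensitive, PC3 sensitive, PC3 resistant and DU145 resistant, where the last pair overlap.

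AKR1C3, also called type 5 17-beta-hydroxysteroid dehydrogenase and prostaglandin F synthase, was much less abundant in DU145 than its neighbours. Sensitive cells gave 239 and 200 counts and resistant cells 4 and 10, or 6.65 and 5.75 against 0.117 and 0.288 CPM. The groups do not overlap. The means were 6.20 ± 0.64 and 0.202 ± 0.121 CPM (SD, n = 2 each), with a pooled ratio of 30.6 for 439 against 14 counts (exact 95% counting interval 18.0 to 56.4). The log2 fold change was -4.91 ± 0.44 (SE), and -5.60 without DU145 resistant replicate 2.

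In PC3, AKR1C3 counts were 68 and 93 in sensitive cells against 52 and 63 in resistant cells, or 1.97 and 2.94 against 1.21 and 1.63 CPM. Both resistant libraries are again below both sensitive ones. The pooled ratio was 1.73 (exact 95% counting interval 1.35 to 2.21) and the log2 fold change -0.88 ± 0.35 (SE). AKR1C3 is the gene whose 4 groups do not overlap at all, in the order DU145 sensitive, PC3 sensitive, PC3 resistant and DU145 resistant.

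AKR1B1, aldose reductase, was the most abundant of the 5 genes in DU145. Sensitive cells gave 9693 and 7271 counts and resistant cells 4763 and 2888, or 270 and 209 against 139 and 83.2 CPM. The groups do not overlap, but each spans a wide range. The means were 239 ± 42.9 and 111 ± 39.6 CPM (SD, n = 2 each), a ratio of 2.15, with a log2 fold change of -1.09 ± 0.26 (SE). Its value moved with single libraries, to -1.58 without DU145 resistant replicate 1, to -0.70 without DU145 resistant replicate 2 and to -0.85 without DU145 sensitive replicate 1. In the last 2 of these fits it did not pass the threshold used for all genes.

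AKR1B1 differed between the lines more than between resistant and sensitive cells. PC3 gave 63 and 91 counts when sensitive and 94 and 80 when resistant, or 1.82 and 2.87 against 2.18 and 2.07 CPM, where the resistant values lie within the sensitive ones. Sensitive DU145 cells held 102 times, and resistant DU145 cells 52.2 times, the mean CPM of the matching PC3 cells. The log2 fold change in PC3 was -0.23 ± 0.33 (SE), and 0.10 without PC3 sensitive replicate 2.

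AKR1B10, the retinal reductase next to AKR1B1 on chromosome 7, did not share the pattern of the other 4 genes. DU145 gave 75 and 88 counts when sensitive and 102 and 102 when resistant, or 2.09 and 2.53 against 2.98 and 2.94 CPM. PC3 gave 64 and 39 counts when sensitive and 81 and 89 when resistant, or 1.85 and 1.23 against 1.88 and 2.31 CPM. In both lines the resistant libraries lie above the sensitive ones, in PC3 by 1.88 against 1.85 CPM. The log2 fold changes were 0.37 ± 0.31 in DU145 and 0.33 ± 0.32 in PC3 (SE), close to the size of their errors. Over all groups the DU145 resistant libraries were highest, and PC3 resistant overlapped DU145 sensitive.

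The members were chosen on these contrasts, so their place relative to the threshold used for all genes (edgeR's quasi-likelihood test with Benjamini-Hochberg adjustment at 0.05) describes the choice and is no test of them. In DU145, AKR1C1, AKR1C2, AKR1C3 and AKR1B1 lay past it as lower, as did 15.4% of all tested genes, with 27.8% past it in either direction. In PC3 none of the 5 lay past it by edgeR or by DESeq2, against 35.6% of all tested genes, but AKR1C2 did when PC3 resistant replicate 1 was left out. Nothing is read from these counts. By CPM alone, 4 members lay lower and 1 higher without overlap in DU145, where 31.7% and 29.6% of tested genes did. In PC3, 2 members lay lower and 1 higher without overlap, against 30.6% and 40.9%.

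The chromosome 10 and chromosome 7 genes were set side by side. The AKR1C genes summed to 206 and 189 CPM when DU145 was sensitive and to 0.351 and 0.749 CPM when it was resistant. The AKR1B genes summed to 272 and 212 against 142 and 86.1 CPM. AKR1C thus made up 43.1% and 47.2% of the CPM of the 5 genes in sensitive DU145 cells and 0.246% and 0.862% in resistant ones. In PC3 the AKR1C share was 51.5% and 60.0% in sensitive and 47.9% and 47.7% in resistant cells, at sums of 3.74 to 6.15 CPM for AKR1C and 3.68 to 4.38 CPM for AKR1B. The median log2 fold change of the AKR1C genes was -9.03 in DU145 and -0.88 in PC3, and the mean for the AKR1B pair was -0.36 and 0.05. The median over all tested genes was 0 in DU145 and 0.01 in PC3. The PC3 log2 fold change minus that of DU145 was 9.05 for AKR1C1, 8.02 for AKR1C2 and 4.03 for AKR1C3, against 0.85 for AKR1B1 and -0.03 for AKR1B10. Of all tested genes, 34.3% passed the test of this difference, 18.5% upward and 15.9% downward, and no test is given for the members.

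Within the AKR1C genes, the balance of AKR1C1 to AKR1C2 differed by line. AKR1C1 took 51.7% and 59.4% of the counts of the pair in the DU145 sensitive libraries. Its share was 80.6% and 87.3% for sensitive PC3 cells, and 89.0% and 94.5% for resistant ones. All 4 PC3 values lie above both DU145 sensitive values, and their exact 95% intervals, which cover counting error only, do not reach them (lowest bound 69.1%). In the DU145 resistant libraries the share was 37.5% and 62.5% on 8 and 16 counts, with intervals of 8.52% to 75.5% and 35.4% to 84.8%.

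Levels were compared between genes as CPM per kb of annotated exon. The lengths take in every annotated exon of a gene, from 1773 bases for AKR1B10 to 8765 for AKR1C1, so the order depends on them. In sensitive DU145 cells the order was AKR1B1 at 65.5, AKR1C2 at 14.0, AKR1C1 at 12.1, AKR1C3 at 1.59 and AKR1B10 at 1.30 CPM per kb. In resistant DU145 cells it was AKR1B1 at 30.4 and AKR1B10 at 1.67, with the 3 AKR1C genes between 0.0214 and 0.0518 CPM per kb. AKR1B10 thus went from the last place to the second, with little difference in its own level. In PC3, AKR1B10 led at 0.870 CPM per kb in sensitive and 1.18 in resistant cells, ahead of AKR1B1 at 0.643 and 0.583. By mean CPM without the length, it did not lead in PC3. In sensitive cells AKR1B10 stood at 1.54 CPM, below AKR1C3 at 2.45, AKR1B1 at 2.35 and AKR1C1 at 2.19. In resistant cells it stood at 2.09 CPM, below AKR1C1 at 2.24 and AKR1B1 at 2.13.

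The lowest counts call for 2 limits. First, in each library the gene lowest relative to its 8-library mean CPM was taken, among 2659 genes of at least 100 CPM on average. It still had 0.277% to 0.798% of that mean, which bounds from above the reads that every library could share with the others. Applied to the mean CPM of the members, this share predicts 2.62 and 4.14 counts of AKR1C1 in the DU145 resistant libraries, where 3 and 10 were counted. For AKR1C2 it predicts 2.04 and 3.22 there, where 5 and 6 were counted. For AKR1C3 it predicts 0.243 and 0.384, where 4 and 10 were counted. In PC3 it predicts 3.63 to 5.45 counts of AKR1C2 against the 5 to 13 counted, and at most 22.4 of AKR1B1 against 63 to 94. With the predicted counts subtracted, the DU145 log2 fold changes became -10.19 for AKR1C1 and -9.88 for AKR1C2, and the PC3 value of AKR1C2 became -1.65.

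The other limit is shared sequence. Of the 50-base words in its transcripts, AKR1C1 shared 24.9% with other genes, nearly all with AKR1C2, and AKR1C2 shared 36.0%. The figures were 5.23% for AKR1C3, 7.18% for AKR1B1 and 15.2% for AKR1B10, mostly with AKR1B15. No source used here states how reads with several matches were counted, so the split between AKR1C1 and AKR1C2 is uncertain. Summed as 1 feature, AKR1C1, AKR1C2 and AKR1C3 had log2 fold changes of -8.48 (DU145) and -0.47 (PC3), and AKR1C1 with AKR1C2 of -9.09 and -0.17.

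Of 12 other aldo-keto reductases, 8 could be tested. In DU145, 0 passed as higher and 2 as lower by edgeR, against 12.4% and 15.4% of all tested genes, and DESeq2 and an unadjusted p under 0.05 gave the same counts. AKR1E2, a reductase encoded near the AKR1C genes, fell from 10.1 and 9.80 to 4.09 and 3.98 CPM, a log2 fold change of -1.29 ± 0.30 (SE; edgeR adjusted p = 0.00981). In PC3 it had at most 1 count in any library. AKR7A2, an aflatoxin aldehyde reductase, fell from 34.4 and 30.6 to 23.6 and 22.8 CPM (-0.48 ± 0.15, edgeR adjusted p = 0.0398). That call did not hold in any of the 8 fits that leave out 1 library, in which its value lay between -0.58 and -0.35.

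In PC3, 2 of the 8 passed as higher and 0 as lower (3 and 0 at an unadjusted p under 0.05, 2 and 0 by DESeq2), against 18.6% and 17.0% of all tested genes. Both encode beta subunits of voltage-gated potassium channels, which keep the aldo-keto reductase fold. KCNAB1 rose from 1.04 and 1.01 to 5.48 and 6.48 CPM (2.44 ± 0.30, edgeR adjusted p = 0.000157). KCNAB2 rose from 30.4 and 22.7 to 46.0 and 62.8 CPM (0.93 ± 0.23, edgeR adjusted p = 0.010), and did not pass without PC3 sensitive replicate 2 (0.72) or PC3 resistant replicate 2 (0.68). AKR1A1, the aldehyde reductase, was the most abundant of the tested genes in this list in DU145, at 98.5 to 167 CPM, and did not pass in either line. AKR1C4, the liver member of the chromosome 10 cluster, had 0 counts in all 8 libraries, which allows up to 0.0947 CPM in the shallowest. In DU145 each of the 8 lay closer to 0 than AKR1C3, while in PC3 KCNAB1 lay farther from 0 than any AKR1C gene. The medians of the 8 were -0.32 in DU145 and 0.57 in PC3.

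**Figure D2:**
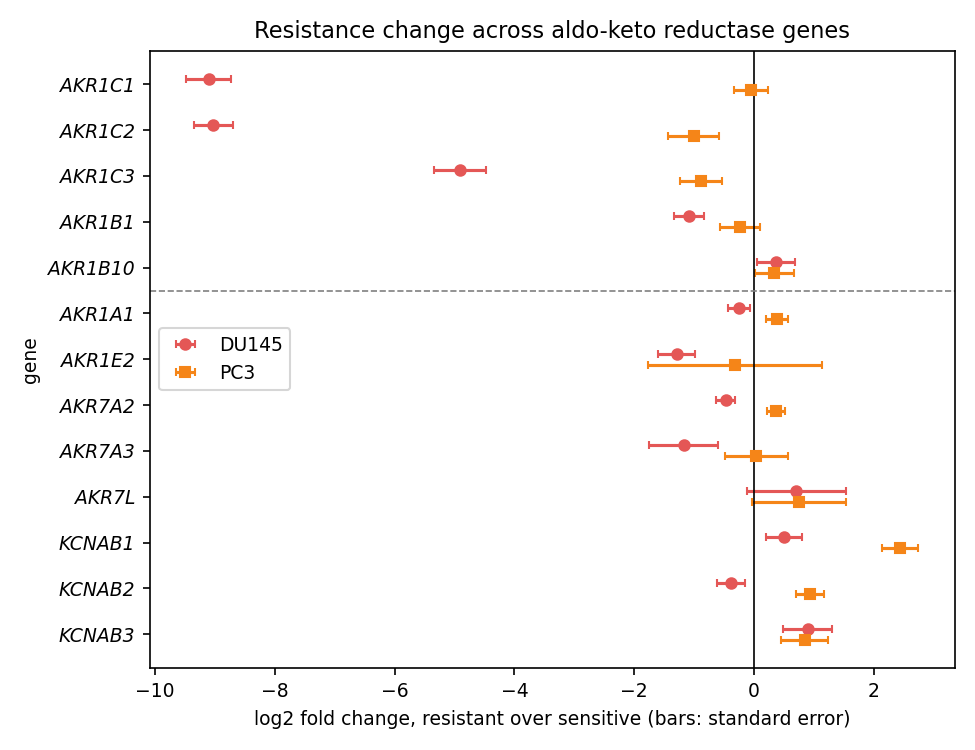
Log2 fold changes of resistant over sensitive cells (x axis) with standard errors as bars, for the 5 members above the dashed line and 8 other aldo-keto reductases below it, in DU145 (circles) and PC3 (squares). AKR1C1 and AKR1C2 lie near -9 and AKR1C3 near -5 in DU145, and the next lowest gene in either line is AKR1E2 at -1.29.

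The genes that share substrates with the AKR1C enzymes were then read from the same fit. Of 32 genes of steroid hormone metabolism, 19 could be tested. In DU145, 0 passed as higher and 2 as lower (2 and 6 at an unadjusted p under 0.05, 4 in all by DESeq2), and in PC3, 7 as higher and 3 as lower. Over all tested genes the shares were 12.4% higher and 15.4% lower in DU145 and 18.6% and 17.0% in PC3, which are also those to set beside the lists that follow. The medians of the steroid genes were -0.38 and 0.37. The number passing in PC3 was 6 in place of 10 without PC3 sensitive replicate 1, PC3 sensitive replicate 2 or PC3 resistant replicate 2, and in DU145 it was 4 in place of 2 when PC3 resistant replicate 1 or 2 was left out. SRD5A1, the 5-alpha-reductase that makes dihydrotestosterone, rose in PC3 from 17.5 and 17.7 to 39.2 and 44.9 CPM (1.16 ± 0.14, edgeR adjusted p = 0.000175). HSD17B12, a 17-beta-hydroxysteroid and ketoacyl-CoA reductase, fell there from 127 and 135 to 45.1 and 33.2 CPM (-1.84 ± 0.16, edgeR adjusted p = 1.4e-05). HSD3B7, a dehydrogenase of bile acid synthesis, fell in DU145 from 28.9 and 29.4 to 7.10 and 10.6 CPM (-1.72 ± 0.23, edgeR adjusted p = 0.000372). It also fell in PC3, from 7.44 and 10.0 to 4.51 and 5.39 CPM (-0.92 ± 0.23, edgeR adjusted p = 0.0110). Its difference between the lines did not pass (edgeR adjusted p = 0.0776).

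Of 22 genes of prostaglandin synthesis, breakdown and receptors, 16 could be tested, and 2 were higher and 5 lower in DU145 against 4 and 5 in PC3 (medians -0.25 and 0.33), where all tested genes gave 12.4% and 15.4% in DU145 and 18.6% and 17.0% in PC3. Without PC3 sensitive replicate 1, 5 passed in PC3 in place of 9. HPGD, which inactivates prostaglandins, moved in opposite directions. It fell in DU145 from 5.65 and 2.21 to 0.0584 and 0.144 CPM (-5.23 ± 0.94, edgeR adjusted p = 0.00226) and rose in PC3 from 8.89 and 6.79 to 43.0 and 151 CPM (3.53 ± 0.56, edgeR adjusted p = 0.000758). Leaving out single libraries moved the DU145 value to -4.36 (without sensitive replicate 1) or -5.92 (without resistant replicate 2) and the PC3 value to 4.17 (without resistant replicate 1) or 2.35 (without resistant replicate 2). PTGFR, the receptor of the prostaglandin F2-alpha that AKR1C3 can make, fell in PC3 from 20.8 and 19.0 to 0.627 and 1.19 CPM (-4.55 ± 0.40, edgeR adjusted p = 1.4e-05). In DU145 it had at most 3 counts in any library. PTGER4, a receptor of prostaglandin E2, rose in both lines, by 1.80 ± 0.20 in DU145 and 1.95 ± 0.20 in PC3 on the log2 scale (edgeR adjusted p = 0.000123 and 3.9e-05). PTGES, a prostaglandin E synthase, rose in PC3 (1.69 ± 0.33, edgeR adjusted p = 0.00272), with 33.4 and 80.4 CPM in the resistant libraries, and its value was 0.92 without PC3 resistant replicate 2.

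Of 32 genes of carbonyl, aldehyde and polyol metabolism, 29 could be tested, and 4 were higher and 13 lower in DU145 against 6 and 5 in PC3 (medians -0.65 and 0.06), beside the same 12.4% and 15.4%, and 18.6% and 17.0%, of all tested genes. Without PC3 sensitive replicate 2, 7 passed in PC3 in place of 11. ALDH3B1, an aldehyde dehydrogenase, fell in DU145 from 275 and 246 to 6.52 and 4.84 CPM (-5.50 ± 0.28, edgeR adjusted p = 8.1e-07). Mitochondrial ALDH2 fell from 74.4 and 86.0 to 8.50 and 11.2 CPM (-3.02 ± 0.18, edgeR adjusted p = 2.1e-06). RDH10, a retinol dehydrogenase, fell in DU145 (-2.48 ± 0.28, edgeR adjusted p = 0.000126) and rose in PC3 (1.91 ± 0.28, edgeR adjusted p = 0.000451). SORD, which follows AKR1B1 in the polyol pathway, stood at 51.7 and 46.2 against 40.7 and 36.0 CPM in DU145 and did not pass in either line.

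AKR1C and AKR1B genes are often counted among NRF2 targets, so other genes of that system were listed without them. Of 9 regulators, 0 passed in DU145 by edgeR or DESeq2 (1 higher and 1 lower at an unadjusted p under 0.05), and 0 were higher and 3 lower in PC3 (medians 0.11 and 0.05). The DU145 number became 1 without DU145 sensitive replicate 2 or DU145 resistant replicate 2, and the PC3 number 1 without PC3 sensitive replicate 1, PC3 sensitive replicate 2 or PC3 resistant replicate 2. NFE2L2, which encodes NRF2, was at 179 and 179 against 144 and 150 CPM in DU145 (-0.28 ± 0.13, edgeR adjusted p = 0.135). In PC3 it passed as lower, at 90.6 and 86.0 against 77.2 and 65.6 CPM (-0.41 ± 0.13, edgeR adjusted p = 0.0318). Leaving out single libraries moved that PC3 value between -0.52 and -0.30. SQSTM1, an adaptor that sequesters the NRF2 inhibitor KEAP1, fell in PC3 from 398 and 564 to 249 and 280 CPM (-0.96 ± 0.19, edgeR adjusted p = 0.00283). Of 27 targets and genes of NADPH supply, 0 were higher and 20 lower in DU145 (0 and 22 at an unadjusted p under 0.05, 20 in all by DESeq2), where 15.4% of all tested genes were lower, and 3 were higher and 11 lower in PC3 (medians -1.04 and -0.18), against 18.6% and 17.0%. In PC3, leaving out sensitive replicate 1 left 9 passing in place of 14, and leaving out sensitive replicate 2 left 8.

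The NADPH suppliers PGD and IDH1, which make the cofactor that aldo-keto reductases use, fell in DU145 by 2.89 and 2.85 on the log2 scale (SE 0.15 and 0.23, edgeR adjusted p = 8.3e-07 and 1.3e-05). The export pump ABCC2 fell from 356 and 344 to 9.88 and 10.6 CPM (-5.09 ± 0.15, edgeR adjusted p = 4.0e-08). The glutathione peroxidase GPX2 fell from 14.4 and 10.3 to 0.351 and 0.0576 CPM (-5.88 ± 0.61, edgeR adjusted p = 7.3e-05), and its value was -7.72 without DU145 resistant replicate 1 and -5.04 without DU145 resistant replicate 2. In none of these 4 genes was the PC3 value as far from 0 as the DU145 value. ABCC2 also passed as lower in PC3 (-0.78 ± 0.17, edgeR adjusted p = 0.00551), while PGD, IDH1 and GPX2 did not pass there. The difference between the lines passed the test for all 4 (edgeR adjusted p at most 0.000322). These 4 were picked for large changes in this same fit, so their passing is partly built in.

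**Figure D3:**
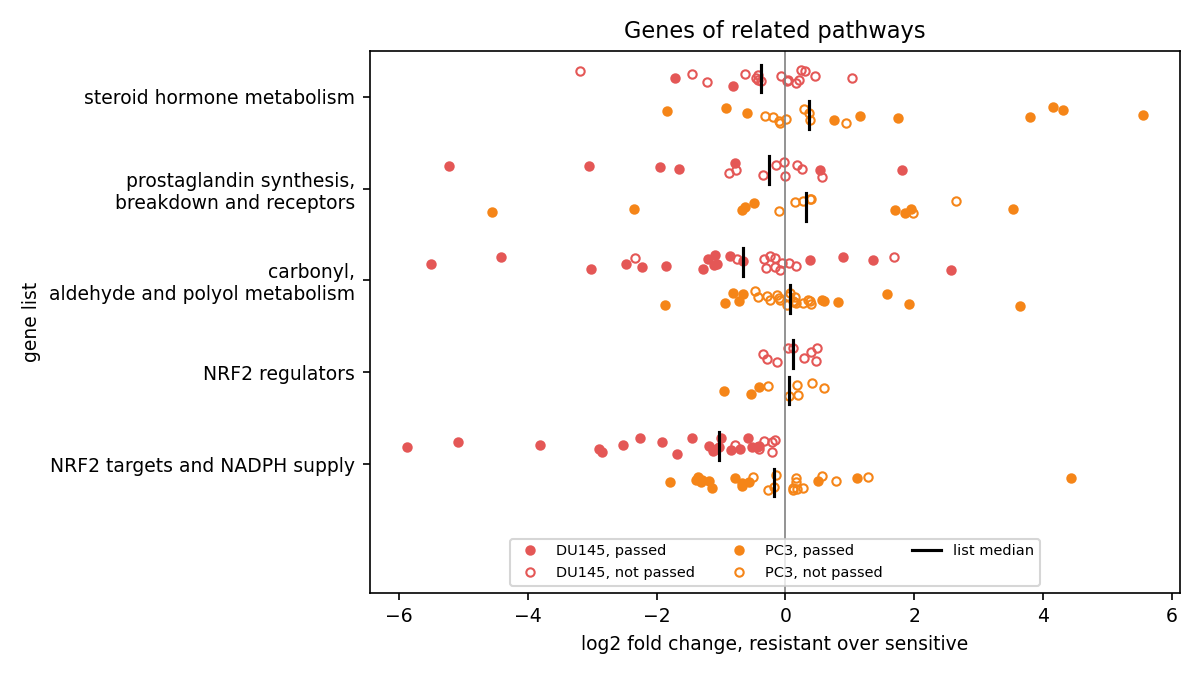
Each point is a tested gene of one of 5 lists (y axis) at its log2 fold change of resistant over sensitive cells (x axis), in DU145 (upper row of each list) and PC3 (lower row), filled where it passed, and black bars are list medians. The list of NRF2 targets and NADPH supply has its DU145 median at -1.04 and its PC3 median at -0.18, and no regulator passed in DU145.

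Genes around the 2 clusters were taken from the annotation, as those starting within 1 Mb of the spans chr10:4963253-5218949 and chr7:134442356-134579875, without aldo-keto reductases. Of 48 annotated neighbours of the AKR1C genes, 17 could be tested, and in DU145 1 was higher and 10 lower, against 12.4% and 15.4% of all tested genes, with a median of -0.82. ASB13, a ubiquitin ligase adaptor gene starting 448 kb from the cluster, fell from 73.9 and 65.6 to 11.5 and 13.5 CPM (-2.48 ± 0.16, edgeR adjusted p = 3.6e-06). The DNA helicase gene FBXO18 fell by 1.69, the splicing factor gene RBM17 by 1.29 and GDI2, a regulator of Rab proteins, by 1.20 on the log2 scale (edgeR adjusted p at most 0.000184). Without DU145 resistant replicate 2 the number passing was 7 in place of 11. The 8 protein-coding neighbours that passed all lay closer to 0 than the AKR1C genes. The 1 that passed as higher, the non-coding LINC00704, was picked out after its values were seen and had 0 and 0 counts in sensitive against 1 and 7 in resistant libraries, too few to give a fold.

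In PC3, where 18.6% of all tested genes were higher and 17.0% lower, 0 of these 17 neighbours were higher and 6 lower (median -0.53; 1 and 9 at an unadjusted p under 0.05, 7 in all by DESeq2), among them RBM17 at -0.67 and GDI2 at -0.63, both lost without PC3 sensitive replicate 1 or PC3 resistant replicate 2. Leaving out PC3 sensitive replicate 1 brought the number passing from 6 to 1, and leaving out PC3 sensitive replicate 2 or PC3 resistant replicate 2 brought it to 3. Of 24 annotated neighbours of the AKR1B genes, 12 could be tested, and 0 passed in DU145 by edgeR or DESeq2 (1 higher at an unadjusted p under 0.05), with a median of -0.01. With DU145 resistant replicate 1 or 2 left out, 1 passed. In PC3, 0 were higher and 4 lower (median -0.47), beside the 18.6% and 17.0% of all tested genes, and 0 passed without PC3 sensitive replicate 1, PC3 sensitive replicate 2 or PC3 resistant replicate 2. BPGM, a gene of red cell glycolysis 66.9 kb from AKR1B15, stood at 22.1 and 22.6 against 23.3 and 27.5 CPM in DU145.

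**Figure D4:**
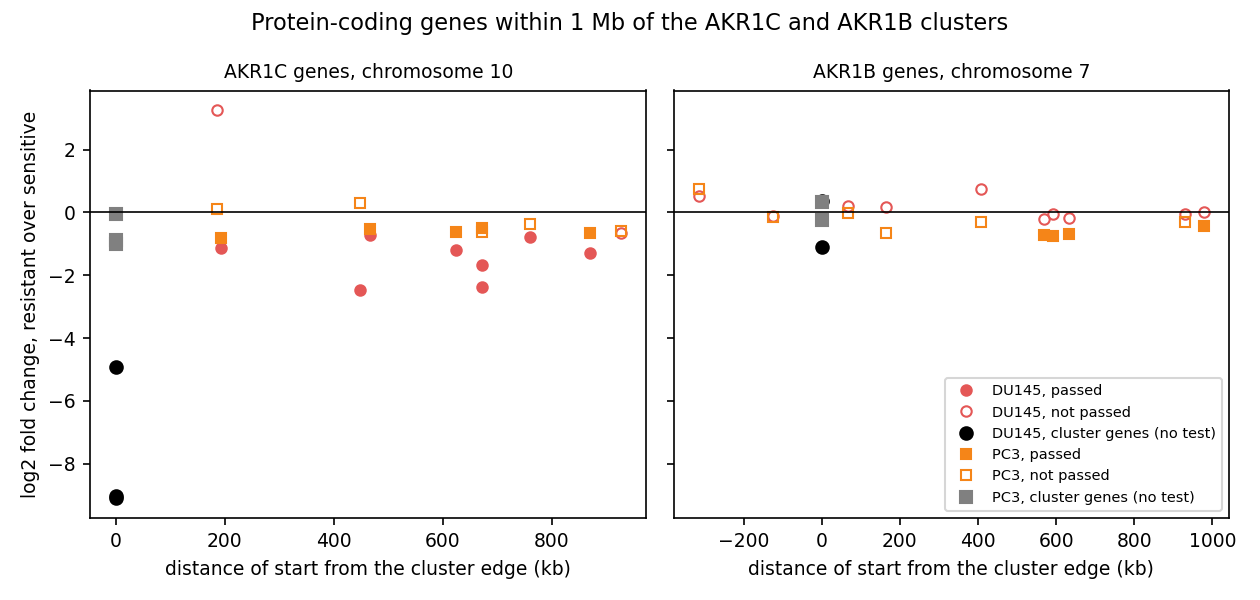
Log2 fold changes of resistant over sensitive cells (y axis) of protein-coding genes against the distance of their start from the cluster edge in kb (x axis), for the AKR1C cluster of chromosome 10 (left) and the AKR1B cluster of chromosome 7 (right), filled where they passed, with the members in black or grey at 0 kb. In DU145 the lowest AKR1C neighbour is ASB13 at -2.48, above all 3 AKR1C genes, and no AKR1B neighbour passed.

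The genes most like each member were found by the root mean square difference of log2 CPM, centred over the 8 libraries, among 11137 protein-coding genes with at least 5 CPM on average. As the libraries are few and fall into 4 groups, this describes a shared pattern over groups. The nearest to AKR1C1 were SDPR (1.07), KRT8 (1.29) and ALDH3B1 (1.34), where AKR1C1 itself varied with an SD of 3.21. The keratin KRT8 stood at 2150 and 1271 CPM in DU145 sensitive and 27.2 and 30.8 CPM in DU145 resistant libraries. The nearest to AKR1C2 were CYP4F3 (0.75), LGSN (0.77) and GGT5 (0.79; SD of AKR1C2 3.58). The leukotriene hydroxylase gene CYP4F3 stood at 29.4 and 40.7 CPM in DU145 sensitive cells and at most 0.205 CPM in the other 6 libraries.

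For AKR1C3 the nearest were FBLN1 (0.68), SLC22A18 (0.70) and GRB7 (0.71; SD 1.73), with the other members left out of this comparison. AKR1B1 had closer matches for its range, TSPAN14 (0.22), GPX3 (0.28) and GSTM1 (0.28; SD 3.11). The tetraspanin gene TSPAN14, on chromosome 10, stood at 123 and 106 CPM in DU145 sensitive, 51.5 and 39.5 in DU145 resistant and at most 1.10 CPM in PC3 libraries. The nearest to AKR1B10 were PACSIN2 (0.14), MED29 (0.14) and SFT2D1 (0.15), but AKR1B10 itself varied by an SD of 0.37.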

How the data were processed

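The authors deposited raw read counts per gene, 1 file per library, for 8 bulk libraries (total RNA, SMART-seq mRNA kit). The submitters' processing notes name Bowtie and hg38. No source used here gives the Bowtie version, read length, strand setting or counter, or what was done with multiply matching reads. Groups follow the labels. Single-cell data of the same study were not analysed here.

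From the deposited counts, CPM was computed as counts per 1e6 of the library total. Genes were filtered with filterByExpr by group (20238 kept), scaled by TMM (factors 0.951 to 1.038) and fitted with edgeR 4.0.16 in R 4.3.3, with 1 mean per group over all 8 libraries and 4 residual degrees of freedom. Resistant was compared with sensitive within each line, and the PC3 difference with the DU145 difference, by the quasi-likelihood test, and a gene passed at a Benjamini-Hochberg adjusted p under 0.05. Each standard error was obtained from the size of the log2 fold change over the root of its F statistic. The coefficient of biological variation was 17.1%. Intervals of counts and shares are exact, at 95%, and cover counting error only, as the reads carry no molecular identifiers. A count of 0 allows up to 3 counts.

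Positions, biotypes and exon lengths come from GENCODE 44, which held 56558 of the row identifiers, and promoter windows from RefSeq. The members and gene lists were chosen with earlier results of these data known. Named genes are the members, the tested aldo-keto reductases and, from each other list, up to 4 genes with the largest log2 fold change in either line among those that passed at 5 CPM or more on average, or up to 2 by CPM where none passed. NFE2L2 met this rule through its PC3 value. SORD, BPGM, AKR1C4 and the marker genes were added as checks or for their role in the pathway, SORD and BPGM after their values were seen. On simulated counts with 2-fold and 4-fold changes in DU145, run on 19370 genes, the fit found 48 of 94 and 74 of 99 changed genes, with 9 unchanged genes among 131 calls. Only 193 genes were changed there, whereas 27.8% of tested genes passed in the DU145 data. These recovery rates therefore need not hold for the real fit. Alternatives were DESeq2 1.42.0, other scaling and filters, each line fitted alone, the replicate number as a block, stricter thresholds, subtraction of shared reads, and leaving out each library.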

Additional observations from a re-analysis of the deposited data

Results flagged for a closer look

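For 21 of the genes named by rule, the resistant minus sensitive difference in PC3 differed from that in DU145 by edgeR's test of the difference itself, at an adjusted p under 0.05. Over all tested genes, 34.3% passed. Apart from the other aldo-keto reductases, most genes named by rule were picked for large changes in either line of this same fit. Their passing is therefore partly built in, and the number 21 cannot be compared with that share. The members are not among the 21 because they were chosen with these values known. The values that follow are the PC3 log2 fold change minus the DU145 log2 fold change. Among the other aldo-keto reductases they were 0.84 for AKR7A2, 1.94 for KCNAB1 and 1.32 for KCNAB2.

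Among steroid genes they were -2.05 for HSD17B12 and 1.23 for SRD5A1, and among prostaglandin genes -5.12 for PTGFR, 8.76 for HPGD and 2.57 for PTGES. PTGFR had at most 3 counts in any DU145 library. Among carbonyl and aldehyde genes they were 5.27 for ALDH3B1, 2.73 for ALDH2, 4.39 for RDH10 and 2.37 for ALDH6A1. HPGD and RDH10 had opposite signs in the lines and passed in each of them.

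In the NRF2 lists they were -1.36 for SQSTM1, 7.17 for GPX2, 4.31 for ABCC2, 2.62 for PGD and 2.67 for IDH1. Among the neighbours of the AKR1C genes they were 2.79 for ASB13, 1.19 for FBXO18, 0.62 for RBM17 and 0.58 for GDI2. No value was tested for outlying samples, since each group has 2 libraries.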

How the results depend on the processing

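With 2 libraries per group and a few counts in the lowest libraries, the depth limits the AKR1C folds of DU145 from above and leaves differences of AKR1C2 in PC3 hard to resolve. The counts given here are genes that passed, with the reported count first. In DU145, steroid genes went from 2 to 4 with DESeq2, 5 with no filter, 4 with at least 1 CPM in 4 libraries and 1 with the line fitted alone. Other aldo-keto reductases went from 2 to 1 with no filter or the line fitted alone, and NRF2 regulators and AKR1B neighbours from 0 to 1 with no filter. The 1 CPM filter removed AKR1C2. Adjusted p under 0.01 gave, in DU145, 1 other aldo-keto reductase, 1 steroid gene, 4 prostaglandin genes (from 7), 7 AKR1C neighbours (from 11), and 1284 genes higher and 1842 lower overall (from 2513 and 3120). In PC3 it gave 1, 5 (from 10), 6 carbonyl genes (from 11), 1 NRF2 regulator (from 3), 8 NRF2 targets (from 14), 3 AKR1C neighbours (from 6), 0 AKR1B neighbours (from 4), 2385 higher and 1976 lower (from 3755 and 3441), and 4073 for the difference (from 6951). A limit of 2-fold gave, in DU145, 1 other aldo-keto reductase, 1 steroid gene, 1021 higher and 2002 lower. In PC3 it gave 1 other aldo-keto reductase, 4 carbonyl genes, 0 regulators, 9 targets, 1 AKR1C and 0 AKR1B neighbours and 1352 lower. These limits pass fewer genes by construction, and the cause of the other moves was not tested. Subtraction of shared reads moved the AKR1C median of DU145 from -9.03 to -9.88 and put AKR1E2 in PC3, at 1 count or less, at 0.

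The replicate numbers share only a number. Deviations of same-numbered libraries correlated at 0.323 in DU145 and 0.0861 in PC3. With the replicate block, steroid genes passing in DU145 were 9, NRF2 regulators 4 in DU145 and 5 in PC3, and other aldo-keto reductases 5 in PC3. AKR1C3 in PC3, at -0.88, was then past the threshold, and no other member changed sides.

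Leaving out each library gave these ranges in DU145: other aldo-keto reductases 1 to 2, steroid 2 to 4, NRF2 regulators 0 to 1, AKR1C neighbours 7 to 11, AKR1B neighbours 0 to 1, and genes higher 1380 to 2467. In PC3 the ranges were other aldo-keto reductases 1 to 2, steroid 6 to 11, prostaglandin 5 to 9, carbonyl 7 to 11, NRF2 regulators 1 to 4, NRF2 targets 8 to 16, AKR1C neighbours 1 to 7, AKR1B neighbours 0 to 5, genes higher 2349 to 4020 and lower 1983 to 3578. The libraries behind the lowest counts of genes past the threshold were DU145 sensitive replicate 2 for 1380 and PC3 sensitive replicates 1 and 2 for 2349 and 1983.

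Single genes that had not passed in a line changed sign in some of these fits, between -0.27 and 0.23 for C7orf49, -0.42 and 0.059 for TMEM140, -0.47 and 0.021 for AKR1A1, -0.11 and 0.23 for CUL3, -0.064 and 0.12 for NUP205, -0.55 and 1.78 for AKR7L, -0.21 and 0.061 for SRD5A1 and -3.18 and 1.45 for PTGFR in DU145. In PC3 the ranges were -0.22 to 0.27 for AKR7A3, -2.45 to 2.17 for AKR1E2, -0.66 to 0.10 for ALDH3B1 and -0.38 to 0.0011 for IDH1.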
